A study of Danio rerio with 8 samples.

Results

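The genes ddx3xb (ENSDARG00000005774), the target of the morpholino used in this study, and ddx3xa (ENSDARG00000020573), its copy in the zebrafish genome, were followed through 4 groups of zebrafish (Danio rerio) embryos. They were chosen by name as the target and its paralog, and are 2 of the 33737 Ensembl gene identifiers measured. Whole embryos aged 2 or 6 hours post fertilization (hpf) gave poly(A) RNA for sequencing. The groups were ddx3xb knockdown at 2 hpf, control at 2 hpf, ddx3xb knockdown at 6 hpf and control at 6 hpf, with 2 libraries each, 8 in all. Knockdown embryos carried a ddx3xb morpholino. Control embryos carried a control morpholino according to their titles, while their genotype is given as wild type. The genotype field of the second knockdown library at 6 hpf reads ddx4xb where its title reads ddx3xb. Morpholinos are antisense oligomers of a modified backbone that bind an RNA and hinder its translation or its splicing, so that one lowers a gene product for a time and leaves the genome intact. Its sequence and type, the dose, the fish strain and the number of embryos pooled are not stated, and the series also covers 4 hpf, which was not analysed here.

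DDX3 proteins are ATP-dependent RNA helicases of the DEAD-box family, named for a conserved Asp-Glu-Ala-Asp motif in their ATPase core. In animals they help the small ribosomal subunit load on, and scan, mRNAs with structured leaders, and they gather in cytoplasmic RNA granules. In the early zebrafish embryo the RNA stored in the egg directs the first divisions, is then cleared, and is replaced by transcripts of the embryo's own genome, with 2 hpf lying before and 6 hpf after most of this exchange.

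Each group had 1 value per gene, in RPKM (a read count scaled by gene length and by the reads of the library), although it held 2 libraries. The spread between libraries is therefore unknown, no test could be run, and every difference below is a difference between 2 tables. Ratios were taken as log2 of (RPKM + 1) over the 16217 genes that reached 1 RPKM in any table, and a gene was called higher or lower at a ratio of 2-fold or more. The sum of RPKM was 731302 in knockdown at 2 hpf, 431798 in control at 2 hpf, 473849 in knockdown at 6 hpf and 461376 in control at 6 hpf. The table of knockdown embryos at 2 hpf stood apart, since 5 features reaching 5000 RPKM took 45.1% of its sum, against 0.776% to 2.95% in the other 3 tables. Of 18 maternal oocyte RNAs, 6 were called higher and none lower in knockdown than in control at 6 hpf (median log2 ratio 0.82), whereas of 12 early zygotic genes none was called higher and 5 lower (median -0.61). Over all genes compared at 6 hpf, 8.72% were called higher and 7.87% lower. At 2 hpf 1 of the maternal RNAs was called higher and none lower (median -0.091), and 2 of the zygotic genes were called higher and none lower (median 0.27), where 0.506% of all genes were called higher and 0.943% lower. The zygotic genes had low levels at that age, the highest being 3.12 RPKM in knockdown and 0.739 RPKM in control. All 13 transcripts of the mitochondrial genome stayed within 2-fold at both ages, with medians of 0.14 at 2 hpf and 0.44 at 6 hpf. Blood and muscle markers were at or below 0.371 RPKM in every table and neuron markers reached 5.91 RPKM in knockdown and 7.17 RPKM in control at 6 hpf, with tubb5 the highest. The part of these lists in the values of the ddx3x genes was not tested.

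RNA of the target was abundant in all 4 groups, the knockdown groups included. At 2 hpf ddx3xb stood at 250.8 RPKM in knockdown and 273.9 RPKM in control embryos, and at 6 hpf at 321.8 RPKM in knockdown and 141.0 RPKM in control embryos. On the deposited scale the group that stood apart was thus control at 6 hpf, with the other 3 groups between 250.8 and 321.8 RPKM. This depended on scaling. After rescaling of the tables by their median ratio, the log2 change of ddx3xb from 2 to 6 hpf was -0.41 in control and 0.35 in knockdown. By rank from the highest value, which does not depend on how a table is scaled, ddx3xb was at place 185 in knockdown and 166 in control at 2 hpf, and at place 173 in knockdown and 570 in control at 6 hpf.

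The paralog ddx3xa, which codes for the second zebrafish DDX3 helicase, had lower levels and, on the deposited scale, the same order of groups. It stood at 84.3 RPKM in knockdown and 102.7 RPKM in control at 2 hpf, and at 115.1 RPKM in knockdown and 41.8 RPKM in control at 6 hpf. Its place from the highest value was 1018 in knockdown and 840 in control at 2 hpf, and 755 in knockdown and 2112 in control at 6 hpf. On that scale the order for both genes, from high to low, was knockdown at 6 hpf, control at 2 hpf, knockdown at 2 hpf and control at 6 hpf. By rank the orders differed at the top. The highest place of ddx3xb was in control at 2 hpf (166, against 173 in knockdown at 6 hpf). That of ddx3xa was in knockdown at 6 hpf (755, against 840 in control at 2 hpf). Whether neighbours in either order differ beyond the spread between libraries could not be determined.

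**Figure D1:**
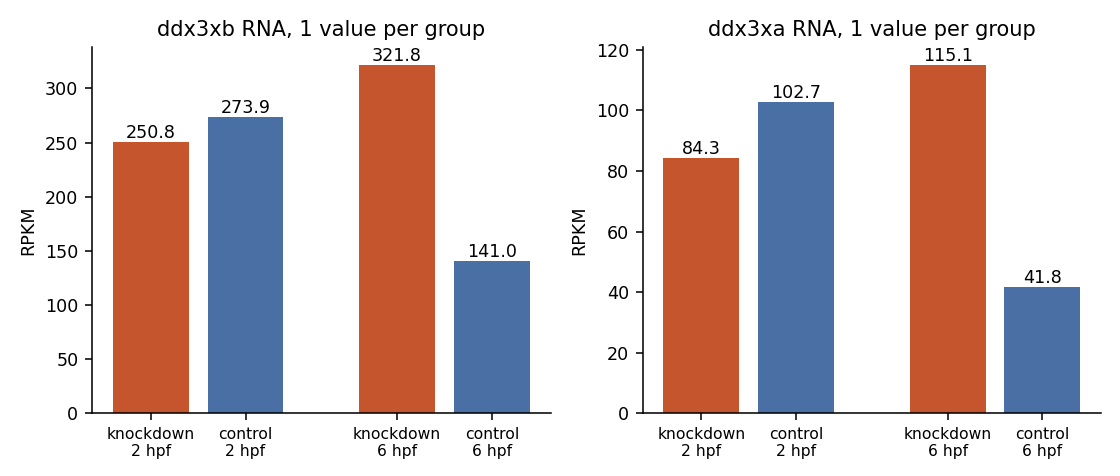
RPKM of ddx3xb (left) and ddx3xa (right) in knockdown and control embryos at 2 and 6 hpf. Each bar is the authors' value for a group of 2 libraries, with no error available. Control at 6 hpf is the low group for both genes, at 141.0 RPKM for ddx3xb and 41.8 RPKM for ddx3xa.

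The number of reads behind these values is not stated, but the smallest values of the tables move in steps of single reads. What 1 read adds was measured at genes on these steps, 240 of them in the 2 hpf tables and 281 in the 6 hpf tables. If a read is worth as much RPKM at the ddx3x genes as at the 90th percentile of those low genes, the values rest on about 3207 reads in knockdown and 4144 in control at 2 hpf for ddx3xb, and on 2551 reads in knockdown and 1275 in control at 6 hpf. For ddx3xa the same reckoning gives 1078 and 1554 reads at 2 hpf, and 912 and 378 at 6 hpf, in knockdown and control. The largest counting error, that of ddx3xa in control at 6 hpf, would be 5.14%, or 0.072 on the log2 scale, which is small beside the differences at 6 hpf. Counting error says nothing of the spread between libraries, and reads copied by PCR are not independent molecules.

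At 2 hpf, the comparison asked whether the morpholino had altered the poly(A) RNA of its target, or of the copy. Stored RNA that the poly(A) selection did not capture was not measured. Neither gene was called. The log2 ratio of knockdown over control was -0.13 for ddx3xb and -0.28 for ddx3xa, against a median of -0.12 over all genes compared, and 0.506% of genes were called higher and 0.943% lower. Of the 16217 genes, 7971 had a lower ratio than ddx3xb and 4691 a lower ratio than ddx3xa. On the deposited scale this places the target near the middle of all genes and its copy in the lower part. The number of genes above ddx3xb was 8245 as deposited, 5607 after rescaling by the median ratio and 10925 with quantile normalization. The RNA of a morpholino's target need not fall when translation is blocked, and the tables hold no splice variants, so these values neither measure how much Ddx3xb protein was left nor check the labels.

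At 6 hpf both genes were called higher in the knockdown, where 8.72% of all genes compared were called higher and 7.87% lower. The log2 ratio was 1.18 for ddx3xb, or 2.28-fold by RPKM, and 1.44 for ddx3xa, or 2.75-fold by RPKM, against a median of 0.20 over all genes. There were 803 genes with a larger ratio than ddx3xb and 363 with a larger ratio than ddx3xa. These numbers depended on the pseudocount. With 0.1 RPKM added to each value they were 1919 and 1006, and with 5 RPKM added they were 260 and 115. Among the 2990 genes that reached 50 RPKM in any table, 11.5% were called higher and 5.89% lower. The call of ddx3xb at 6 hpf did not hold under rescaling of the tables by their median ratio, which gave 0.82, while ddx3xa stayed past 2-fold at 1.08. That rescaling also turned the balance of all genes, with 598 higher and 2176 lower, against 1414 higher and 1277 lower as deposited. In the ratio between arms at 6 hpf the maternal oocyte list had the direction of the pair, as its 18 compared members were all above 0. Their summed level, with the 1 member not compared, was 945.9 RPKM in knockdown and 640.6 RPKM in control. From 2 to 6 hpf in knockdown the list went the other way from the pair, with 8 members called lower and none higher (median -0.87). In that comparison 13.0% of all genes were called lower and 25.5% higher, and the log2 ratios were 0.36 for ddx3xb and 0.44 for ddx3xa. The maternal list shares DDX4 with the list of helicases, and ZAR1 and DAZL with that of granule proteins.

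**Figure D2:**
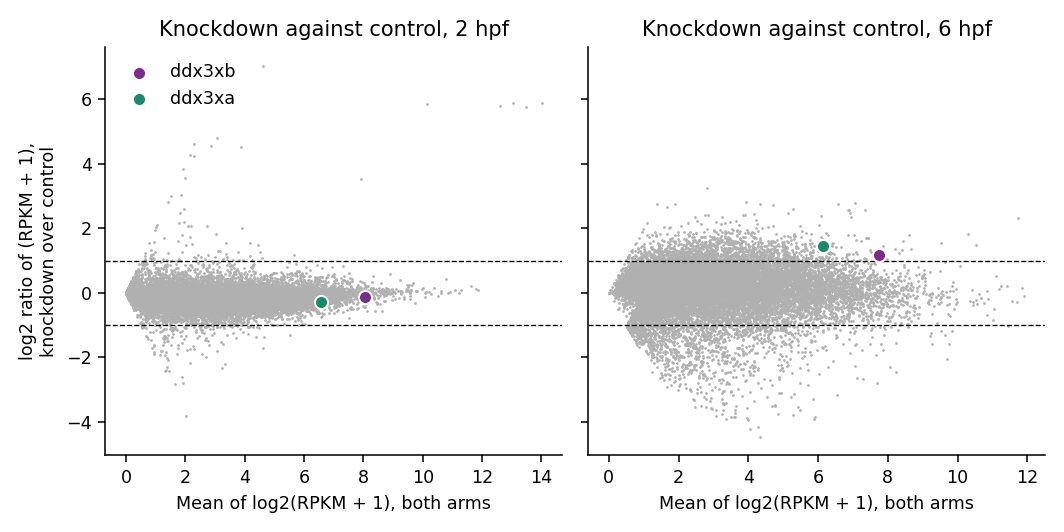
Knockdown over control, as the log2 ratio of (RPKM + 1), against the mean level of both arms on the log2 scale, for the 16217 genes compared (grey) at 2 hpf (left) and 6 hpf (right). Dashed lines mark 2-fold. The ddx3x genes lie within the cloud at 2 hpf (-0.13 and -0.28) and above the upper line at 6 hpf (1.18 for ddx3xb, 1.44 for ddx3xa).

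The change with age had opposite signs in the arms. In knockdown embryos both RNAs were somewhat higher at 6 than at 2 hpf, with log2 ratios of 0.36 for ddx3xb and 0.44 for ddx3xa, neither of which was called. With quantile normalization these were 0.050 and 0.32, and with equal RPKM sums under 5000 RPKM 0.16 and 0.25. In control embryos both were lower at 6 than at 2 hpf, with -0.95 for ddx3xb, just short of 2-fold, and -1.28 for ddx3xa, which was called lower as were 28.0% of all genes in that comparison, with 27.5% called higher. In knockdown embryos 25.5% of genes were called higher with age and 13.0% lower. These comparisons cover poly(A) RNA only, so a change in tails and a change in amount cannot be told apart. They also cross tables that were scaled separately, and the median over all genes was 0.19 in knockdown and -0.17 in control embryos. Over the 10479 genes that no table put below 1 RPKM, it was 0.0069 in knockdown and -0.49 in control embryos. The effect at 6 hpf minus the effect at 2 hpf was 1.31 for ddx3xb and 1.72 for ddx3xa, both past 2-fold, as were 16.5% of all genes in this direction and 7.91% in the other, with 318 genes above ddx3xa and 1149 above ddx3xb. With 1 value per group this difference between ages was not tested.

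Within a table the target and its copy can be set against each other per length and free of scaling. The ratio of ddx3xb to ddx3xa was 2.98 in knockdown and 2.67 in control at 2 hpf, and 2.80 in knockdown and 3.37 in control at 6 hpf. The target was thus the more abundant gene in every group, with 72.7% to 77.1% of their summed RPKM. The log2 of this ratio in knockdown minus that in control was 0.16 at 2 hpf and -0.27 at 6 hpf, so the copy exceeded the target in its relative gain at 6 hpf by a margin whose error is unknown. The summed RPKM of the pair was 335.1 in knockdown and 376.6 in control at 2 hpf, and 436.9 in knockdown and 182.9 in control at 6 hpf, a ratio of 0.89 at 2 hpf and 2.39 at 6 hpf. How reads that match both genes were assigned is not stated. If they were split between the copies the separate values would be tied to each other, which was not tested. In whole embryos, fewer cells that carry an RNA and less of it per cell cannot be told apart.

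Genes with a similar change over time, averaged over both arms, gave the background for the effect at 6 hpf. With both arms averaged, ddx3xb changed by -0.30 and ddx3xa by -0.42 on the log2 scale from 2 to 6 hpf. Both fell into the bin of genes with a change from -1 to 0, which held 2967 genes once those that never reached 5 RPKM were left out. The median log2 ratio at 6 hpf in that bin was 0.44 (quartiles 0.063 and 0.80), and 13.0% of its genes were called higher. The ratios of ddx3xb (1.18) and ddx3xa (1.44) lay above the upper quartile, with 207 genes of the bin above ddx3xb and 76 above ddx3xa. The averaged change combines opposite changes of the pair, so the bin matches its course in neither arm. For ddx3xb and ddx3xa these were 0.36 and 0.44 in knockdown, and -0.95 and -1.28 in control. In the bin from -2 to -1 the median was 0.62 and 22.3% of genes were called higher. The 3 bins of genes with a change between -4 and -1 had medians of 0.60 to 0.66, and each bin of genes that increased by 1 or more had a median below 0.

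**Figure D3:**
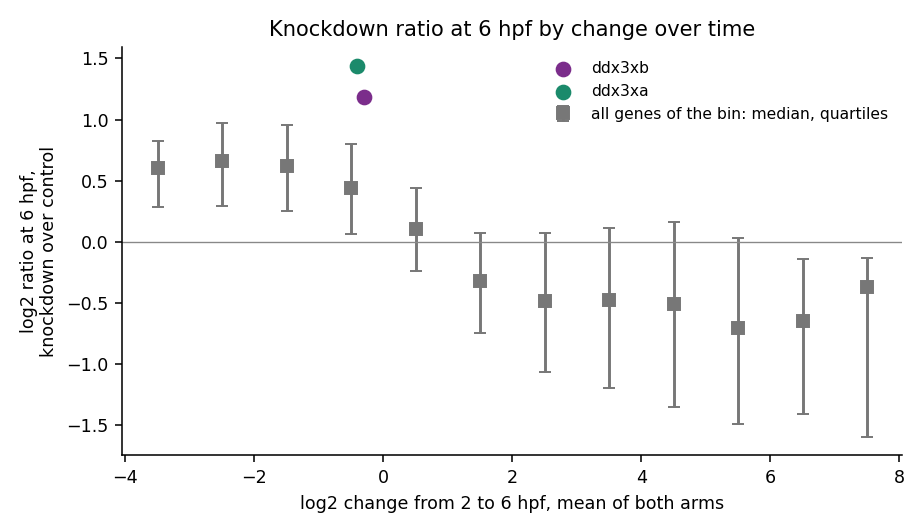
Log2 ratio at 6 hpf, knockdown over control, by the log2 change from 2 to 6 hpf averaged over both arms. Squares and bars are the median and quartiles of all genes with at least 5 RPKM in a bin 1 unit wide (bins of 20 genes or more). The ddx3xb (1.18) and ddx3xa (1.44) points lie above the quartiles of their bin, 0.063 and 0.80.

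Rescaling by the median ratio or by sums moved the values of the pair by like amounts. Quantile normalization did not. At 6 hpf it gave 1.16 for ddx3xb and 1.25 for ddx3xa, against 1.18 and 1.44 as deposited. Over the 10479 genes that no table put below 1 RPKM, the median log2 ratio was -0.18 at 2 hpf and 0.28 at 6 hpf. Rescaling by the median ratio took ddx3xb to 0.065 and ddx3xa to -0.091 at 2 hpf, so that the sign of ddx3xb turned, and quantile normalization gave -0.10 and -0.21. Equal RPKM sums, which the 5 large features dominate, gave -0.88 for ddx3xb and -1.03 for ddx3xa, which was then past 2-fold, at 2 hpf, and -0.041 and -0.20 once those features were left out of the sums. At 6 hpf the values ran from 0.82 to 1.19 for ddx3xb and from 1.08 to 1.46 for ddx3xa over all pseudocounts and scalings tried.

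**Figure D4:**
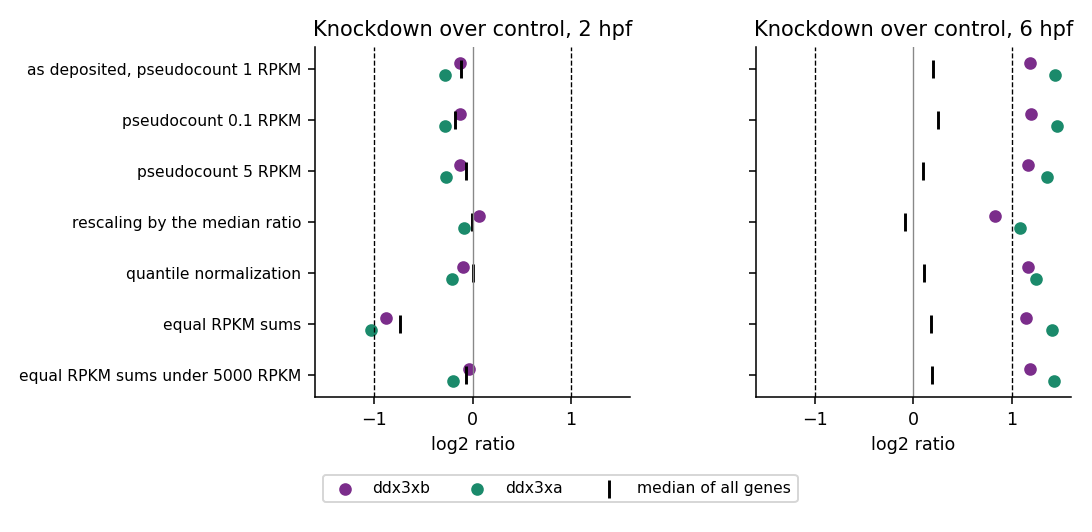
Log2 ratio of knockdown over control at 2 hpf (left) and 6 hpf (right) for ddx3xb and ddx3xa under each pseudocount and scaling, with the median of all genes compared as a black tick and 2-fold as dashed lines. At 6 hpf ddx3xb drops below 2-fold, to 0.82, under rescaling by the median ratio.

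With 1 RPKM added to each value, no other DEAD-box helicase of the family list was called higher at 6 hpf. With a pseudocount of 0.1 RPKM, 3 members of the list were called higher, the ddx3x genes and DDX6. The family list held 32 identifiers with a Ddx or eIF4A symbol, all of which were compared, and symbols are given below as the name table writes them. At 2 hpf none of the 32 was called, the median log2 ratio was -0.21 and 4 lay above 0. At 6 hpf the 2 ddx3x genes were called higher and DDX11 lower, 29 stayed within 2-fold, and the median was 0.083 against 0.20 over all genes, of which 8.72% were called higher and 7.87% lower. The other 30 members ran from -1.01 (DDX11) to 0.91 (DDX6) with a median of 0.038, so that ddx3xa and ddx3xb held the largest ratios of the list. Under rescaling by the median ratio the list's median at 6 hpf became -0.28, ddx3xa was the only member called higher and 3 were called lower. Over the 16217 genes 598 were then higher and 2176 lower, with a median of -0.086.

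DDX6, a helicase that represses translation and promotes decapping, came nearest to the pair in its ratio at 6 hpf and was picked out for that value. It had 25.8 RPKM in knockdown and 34.4 RPKM in control at 2 hpf, and 6.54 RPKM in knockdown and 3.01 RPKM in control at 6 hpf. By RPKM alone DDX6 was thus past 2-fold at 6 hpf, and at its low level the call depended on the pseudocount. It declined with age in both arms, by log2 ratios of -1.83 in knockdown and -3.14 in control, whereas the values of the ddx3x genes were below 0 in control embryos alone. That pattern was not particular to the pair. DDX4, DDX19A, ddx43, ddx39b, eif4a1b and DDX42 were also above 0 in knockdown and below 0 in control. Their declines in control were smaller, from -0.081 (DDX19A) to -0.42 (DDX4). DDX4 (vasa), the germ cell helicase related to DDX3, stood at 123.1 RPKM in knockdown and 143.0 RPKM in control at 2 hpf, and at 142.5 RPKM in knockdown and 106.8 RPKM in control at 6 hpf. Its log2 ratio at 6 hpf, 0.41, had the direction of the pair and was not called. It was chosen after its values were seen.

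The 3 most abundant identifiers of the list stayed within 2-fold between arms at both ages. DDX39A (ENSDARG00000015111), of the group that exports mRNA from the nucleus, had 822.4 RPKM in knockdown and 814.3 RPKM in control at 6 hpf. DDX39A (ENSDARG00000006225), the other identifier with this symbol, had 414.5 RPKM in knockdown and 431.7 RPKM in control. DDX5, a splicing and transcription cofactor, had 1056 RPKM in knockdown and 837.2 RPKM in control at 6 hpf, and increased with age in both arms, by 1.78 in knockdown and 1.37 in control. DDX11, a helicase of chromosome cohesion that belongs to another helicase family despite its symbol, had 3.12 RPKM in knockdown and 7.32 RPKM in control at 6 hpf. The duplicated eIF4A genes, which code for the helicase of the cap-binding complex, were eif4a1a, with 200.9 RPKM in knockdown and 221.5 RPKM in control at 6 hpf, and eif4a1b, with 29.6 RPKM in knockdown and 22.9 RPKM in control. The lowest ratios at 2 hpf were those of DDX56 (7.51 RPKM in knockdown, 15.3 RPKM in control, log2 ratio -0.93), DDX49 (1.21 and 2.86 RPKM, -0.80) and DDX28 (8.74 and 15.8 RPKM, -0.79). None of the 3 was called.

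**Figure D5:**
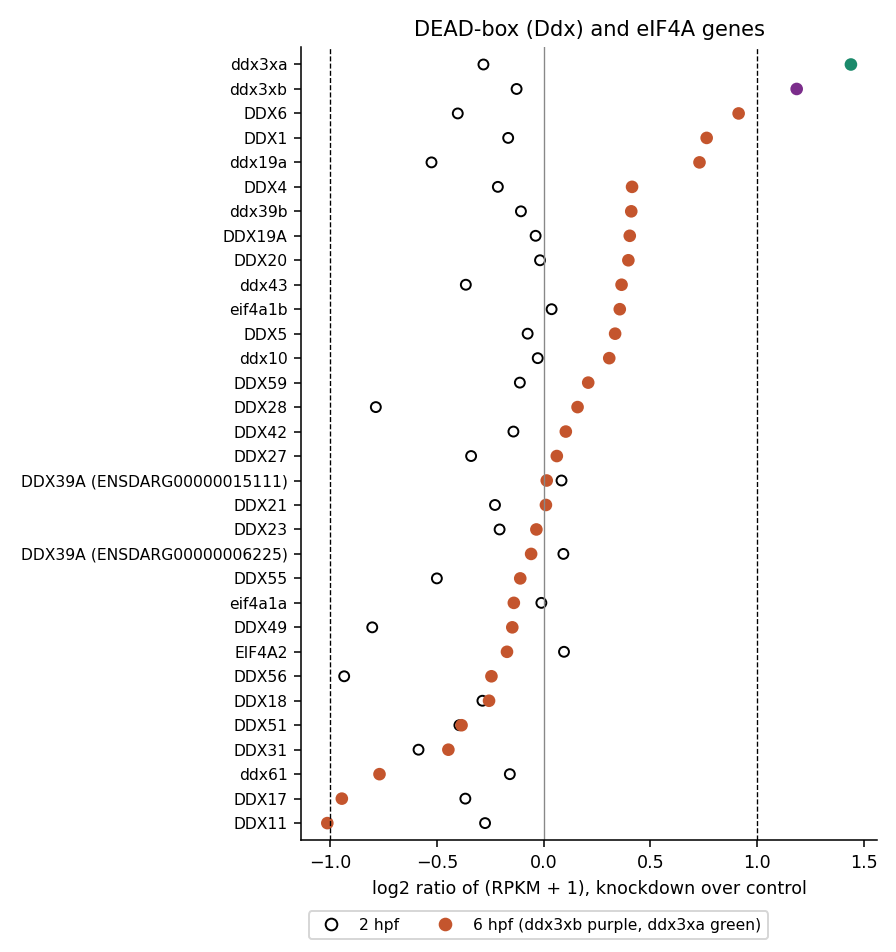
Log2 ratio of (RPKM + 1), knockdown over control, of the 32 DEAD-box and eIF4A identifiers at 2 hpf (open circles) and 6 hpf (filled), ordered by the value at 6 hpf. Dashed lines mark 2-fold. The ddx3xa (1.44) and ddx3xb (1.18) points stand at the top and the next is DDX6 at 0.91.

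As a share of the summed RPKM of the 32 listed identifiers, the pair made up 11.9% in knockdown and 12.8% in control at 2 hpf, and 10.3% in knockdown and 4.89% in control at 6 hpf. Family members without a matching symbol are not in that sum. The summed RPKM of the remaining 30 members was 2492 in knockdown and 2559 in control at 2 hpf, and 3791 in knockdown and 3561 in control at 6 hpf. DDX5 weighed heavily in this rise, as it went from 306.4 to 1056 RPKM in knockdown and from 322.8 to 837.2 RPKM in control. Taken singly, 21 of the 30 had a log2 ratio above 0 with age in knockdown (median 0.17), and 15 in control (median 0.013). Within the list ddx3xb held place 4 by RPKM in both arms at 2 hpf, and place 4 in knockdown and 6 in control at 6 hpf. For ddx3xa the places were 8 in both arms at 2 hpf, and 9 in knockdown and 16 in control at 6 hpf.

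Few of the factors that work in translation initiation were called. Of 42 identifiers for cap-binding and scanning factors 40 were compared, and at 6 hpf 2 were called higher and 1 lower, with a median of 0.056, beside 8.72% higher and 7.87% lower over all genes. Rescaling by the median ratio gave 0 higher and 5 lower, with a median of -0.31. Over the 16217 genes that rescaling gave 598 higher and 2176 lower, with a median of -0.086. The 2 higher were EIF4G3, a scaffold of the cap-binding complex (31.7 RPKM in knockdown and 13.9 RPKM in control for the more changed of its 2 identifiers), and EIF4E2, a cap-binding protein that can block initiation (15.9 and 6.74 RPKM). The lower one was the cap-binding protein gene EIF4E, with 11.96 RPKM in knockdown and 30.1 RPKM in control (log2 ratio -1.27). Other eIF4E genes of the list went the other way without being called. They were eif4eb (43.9 and 24.2 RPKM, 0.84), EIF4E1B (83.2 and 48.2 RPKM, 0.78) and eif4e1c (117.2 and 87.7 RPKM, 0.41), picked out after their values were seen. The most abundant of the whole list were EIF1B, a factor of start codon choice (904.6 and 568.0 RPKM, 0.67), pabpc1a, a poly(A)-binding protein gene (488.8 and 774.6 RPKM, -0.66), and EIF4G2 (ENSDARG00000057167), a relative of the scaffold (224.2 and 212.7 RPKM, 0.076). The other EIF4G2 identifier (ENSDARG00000020377) had 191.6 RPKM in knockdown and 160.2 RPKM in control (0.26). At 2 hpf the median was -0.20 and 1 of the 2 identifiers of EIF2S1, a subunit of the initiator tRNA carrier, was called lower (ENSDARG00000005827, 38.96 RPKM in knockdown and 79.1 RPKM in control, just past 2-fold), while the other (ENSDARG00000052178) had a log2 ratio of -0.34 and was not called. It was picked out after its values were seen.

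In the list of granule and mRNA-storage proteins 34 identifiers were compared, none of them called at 2 hpf (median -0.030). At 6 hpf 4 were called higher and none lower, with a median of 0.22 close to the 0.20 of all genes, of which 8.72% were called higher and 7.87% lower. These were LSM14B, an mRNA storage protein gene (80.6 RPKM in knockdown, 28.6 RPKM in control), patl2 (8.67 and 2.67 RPKM), ZAR1, an oocyte RNA-binding protein gene (22.3 and 9.40 RPKM), and CPEB1, a regulator of cytoplasmic polyadenylation (16.5 and 7.13 RPKM), the last named after its values were seen. The stress granule scaffold G3BP1 had 211.2 RPKM in knockdown and 153.6 RPKM in control at 6 hpf, a log2 ratio of 0.46, and was also chosen after its values were seen. By level the list was led by YBX1, a major mRNA-packaging protein gene, with 1455 RPKM in knockdown and 2343 RPKM in control (log2 ratio -0.69), by hnrnpa1a (677.4 and 774.9 RPKM, -0.19) and by tia1l (340.7 and 347.5 RPKM, -0.028).

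Zebrafish retain many duplicated genes, named alike but for a last letter a or b. Of all genes compared, which reached 1 RPKM in any table, 8.72% were called higher at 6 hpf. That share is per gene, whereas a pair was counted when either gene was called, so shares of pairs are not matched to it. There were 215 pairs of such symbols with at least 5 RPKM in any table for each gene. In 36 of them a gene was called higher at 6 hpf, and in 4 of them both were. Besides ddx3x these were the pairs written mgat4, cracr2 and mma, the last of which are unrelated proteins named in human style. In a restriction made after the data were seen, to the 121 pairs in lower case, the zebrafish style, 22 pairs had a gene called higher. There ddx3x was the pair with both, since mgat4, cracr2 and mma were left out by the case of their symbols. The log2 ratios of ddx3xa and ddx3xb at 6 hpf differed by 0.25. The median difference was 0.54 over the 215 pairs, of which 50 differed less, and 0.50 over the 121 pairs, of which 30 differed less. At 2 hpf the ddx3x pair differed by 0.16. The median was then 0.24 over the 215 pairs, of which 74 differed less, and 0.25 over the 121 pairs, of which 42 differed less.

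Profiles over the 4 groups were compared by the Euclidean distance between log2(RPKM + 1) values, each profile centred on its own mean, among genes with a symbol and at least 20 RPKM in any table. The paralogs were not each other's nearest match. Of 5046 other genes, ddx3xa was at place 50 from ddx3xb and ddx3xb at place 26 from ddx3xa, at a distance of 0.24. The nearest to ddx3xb was mettl27, with 16.4 RPKM in knockdown and 18.7 RPKM in control at 2 hpf, and 21.8 RPKM in knockdown and 9.13 RPKM in control at 6 hpf (distance 0.042). It was followed by si:ch211-235f12.2 (0.061), ZC3HC1 (0.072), VAC14 (0.11) and GTDC1 (0.12). The nearest to ddx3xa was CCDC22, with 48.6 RPKM in knockdown and 59.9 RPKM in control at 2 hpf, and 67.7 RPKM in knockdown and 24.1 RPKM in control at 6 hpf (distance 0.019). GTF2E2, a subunit of the basal transcription factor TFIIE, came next (0.042), then RBPMS2 (0.080), NUP43, a nuclear pore gene (0.12), and PAK4 (0.12). All 10 had their lowest value in control at 6 hpf, a likeness that their choice by these same 4 values favours.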

How the data were processed

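Per the labels' protocols, RNA extracted in TRIzol was enriched for poly(A) RNA on beads and made into KAPA stranded libraries. Named in the submitters' processing notes are HISAT2 2.0.5, SAMtools 1.9, Trimmomatic 0.36, cutadapt 1.13 and genome Zv9. The read counter, annotation, gene lengths, handling of shared reads and the way the 2 libraries of a group were combined are not given in any source used here. The authors deposited RPKM, 1 value per gene and group, in 4 tables matched to groups by genotype tag and age. RPKM is relative to the reads of a library, so features with many reads lower all other values.

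From these, log2 ratios of (RPKM + 1) were computed for genes at 1 RPKM or more in any table and called at 2-fold (Python 3.11.15, pandas 2.3.3). The code was run on simulated tables with planted changes and no spread between libraries, which checks the code and not the calls. No replicate values were available, so no test was run and nothing was adjusted. Symbols matched 21939 of 33737 identifiers; list symbols that found no match were tried without a last a or b. Lists covered DEAD-box helicases, scanning and cap-binding initiation factors, granule and storage proteins, maternal and early zygotic genes, mitochondrial transcripts, and blood, muscle and neuron markers. Genes were named as the 3 highest in level and the 3 with the largest ratio at 6 hpf per list (for helicases also at 2 hpf, those past 2-fold and duplicate pairs), and the 5 nearest profiles; for the lists of maternal, zygotic, mitochondrial and marker genes only summaries are given. The genes and lists were chosen with earlier results of these data known. Single-read steps were read from values under 0.3 RPKM, as the commonest ratios between the tables of an age (tolerance 0.0003 on the log2 scale). Alternatives were other pseudocounts, filters and scalings. No protein or promoter sequences were used here, and no coordinates are given because the annotation at hand was of another build.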

Additional observations from a re-analysis of the deposited data

Results flagged for a closer look

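The effect of the knockdown on ddx3xb had opposite signs at the 2 ages, with a log2 ratio of knockdown over control of 1.18 at 6 hpf and -0.13 at 2 hpf, a difference of 1.31. For ddx3xa the ratios were 1.44 at 6 hpf and -0.28 at 2 hpf, a difference of 1.72. Both were picked out because the direction at 6 hpf was the opposite of that at 2 hpf. Neither difference was tested, as each group had 1 value. The median over all genes compared also changed sign, from -0.12 at 2 hpf to 0.20 at 6 hpf. For the difference between ages, 16.5% of all genes were past 2-fold in this direction and 7.91% in the other. The small negative value of ddx3xb at 2 hpf became 0.065 under rescaling by the median ratio.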

How the results depend on the processing

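Both genes kept their direction at 6 hpf and in the change with age under every pseudocount and scaling tried. The size of the change with age in knockdown was less stable. For ddx3xb it was 0.36 as deposited, 0.16 with equal sums under 5000 RPKM and 0.050, close to no change, with quantile normalization. Of 60 recomputed values of the pair, 5 came to pass 2-fold, 3 no longer passed it and 1 changed sign. Rescaling by the median ratio gave ddx3xb 0.065 at 2 hpf, 0.82 at 6 hpf and 0.76 for the difference between ages. With age in control it gave -0.41 for ddx3xb and -0.74 for ddx3xa. The change of ddx3xb with age in control passed 2-fold with quantile normalization (-1.21), equal RPKM sums (-1.05) and such sums under 5000 RPKM (-1.06). Equal sums also gave -0.88 (ddx3xb) and -1.03 (ddx3xa) at 2 hpf, and 0.98 and 1.06 with age in knockdown. By construction rescaling by the median ratio or by sums multiplies all RPKM values of a table alike, quantile normalization does not, and a lower pseudocount passes more low genes.

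Counts over all genes moved more. At 2 hpf 82 were higher and 153 lower, against 287 and 582 with a pseudocount of 0.1 RPKM and 33 and 19 with 5 RPKM; 96 were lower with a filter of 5 RPKM, 89 with median-ratio rescaling, 89 with quantile normalization, and equal sums gave 36 higher and 3438 lower. At 6 hpf 1414 were higher and 1277 lower, against 2875 and 1925 (0.1 RPKM), 459 and 539 (5 RPKM) and 598 and 2176 (median ratio). With age a pseudocount of 5 RPKM gave 2119 higher and 1194 lower in knockdown, and 2374 and 2641 in control. The number lower was 2928 in control with the median ratio, and in knockdown 3220 with quantile normalization and 902 with equal sums. For the difference between ages, 4375 (0.1 RPKM), 974 (5 RPKM), 780 (median ratio), 1455 (quantile) and 7224 (equal sums) were higher, and 594 (5 RPKM) and 2366 (median ratio) lower.

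Of the helicases, 2 were lower at 2 hpf with 0.1 RPKM and 13 with equal sums (median -0.95). At 6 hpf 3 were higher with 0.1 RPKM, 0 were lower with 5 RPKM and 2 with quantile normalization. The median ratio gave 1 higher and 3 lower at 6 hpf (median -0.28). For initiation factors at 2 hpf 0 were lower with 5 RPKM, the median ratio, quantile normalization and sums under 5000 RPKM, and 14 with equal sums (median -0.92). At 6 hpf 2 were lower with 0.1 RPKM, quantile normalization (median -0.0017) and equal sums, 0 were higher with 5 RPKM, and the median ratio gave 0 higher and 5 lower (median -0.31). The granule median at 2 hpf became 0.16 (median ratio), 0.038 (quantile), 0.055 (sums under 5000 RPKM) and -0.77 (equal sums, 9 lower). At 6 hpf 7 granule genes were higher with 0.1 RPKM and 1 with 5 RPKM, 1 was lower with quantile normalization and 1 with equal sums, and the median ratio gave 2 higher and 2 lower (median -0.13). With Pearson correlation 2 of the 5 nearest genes were shared for ddx3xb and 2 for ddx3xa. Both genes of a pair were higher in 2 pairs with a filter of 20 RPKM, and in 1 in lower case, a choice made after seeing the data.

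No paired analysis was possible because the tables hold 1 value per group of libraries, which also prevented leaving out a replicate. Protein and promoter comparisons were not run.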
